A study of Bos taurus with 24 samples.

Results

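The comparison of the high diet (HD) with the low diet (LD) took in 16 of the 24 testicular RNA libraries of the study, 8 from HD bulls and 8 from LD bulls, which were selected by their diet label alone. All were Holstein bulls. Crude protein (CP) made up 20.0% of the HD and 12.2% of the LD, and total digestible nutrients (TDN) made up 67.9% and 62.9%. Diets ran from 2 to 32 wk of age and began with a fixed milk ration, larger for HD than for LD calves. The barley silage diets with the above composition came after the milk, when HD calves ate as much as they wanted and LD calves were offered an equal weight of their own diet. The bulls then shared 1 medium diet until the testes were taken at 72 wk, so a difference at 72 wk was measured long after the diets had ended. Each library came from the testicular parenchyma of 1 bull, and bulls are named here by their number in the labels. The remaining 8 bulls, on the medium diet (MD), entered the fit to estimate the spread between bulls.

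The testis houses germ cells at every stage of spermatogenesis beside the Sertoli cells that nurse them and the Leydig cells that make testosterone. Feeding before puberty is known to act on the timing of puberty through the hypothalamus and pituitary, which drive Sertoli and Leydig cells. Mitochondria make ATP by passing electrons along a chain of protein complexes, and the mitochondrial genome encodes some of their subunits. COX1 and COX3 are core subunits of cytochrome c oxidase (complex IV), CYB is the cytochrome b subunit of complex III, and ATP6 is part of the proton channel of ATP synthase. Leydig cells also rely on mitochondria to begin turning cholesterol into testosterone.

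The count files name genes by Ensembl identifier and do not pair them with symbols, and the reference table used lists no Ensembl identifiers, so the 24525 gene features could not be looked up. Named genes are therefore limited to those mitochondrial genes, whose identifiers the study prints, and 4 further features are given by identifier. Pathway lists and cell type markers were not analysed here, so the tissue was not checked against its markers. Gene counts were sums over exon bins, the parts of exons that the same transcripts share. In bulk tissue, fewer cells of a type and less RNA per cell cannot be told apart.

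HD and LD libraries overlapped in each library measure. Counts on genes ran from 9163675 to 21902110 in HD bulls (median 13966117) and from 12931488 to 19470903 in LD bulls (median 14245392). Reads outside exons made up 12.3 ± 2.17% (SD, n = 8) of counts and unassigned reads in HD and 13.3 ± 1.83% in LD bulls. In the family of 5 measures (counts, features detected, reads outside exons, and shares of counts on the mitochondrial features above and on the 10 most abundant features), two-sided exact permutation p-values, taken over every way to divide the bulls 8 and 8, ran from 0.162 to 0.911, and from 0.423 to 0.911 after Benjamini-Hochberg adjustment. Low quality alignments, looked at after seeing the data, made up 11.5 ± 5.18% in HD and 8.24 ± 1.82% in LD bulls (exact permutation p = 0.126). Their share reached 20.99% in HD bull 12 and 17.9% in HD bull 8, above the highest LD value of 11.3%.

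The study called genes by the Wald test of DESeq2, with an adjusted p under 0.1 as its threshold. In the quasi-likelihood test of edgeR, 0 of 15005 features (0%) passed that threshold, and the lowest adjusted p was 0.206. Before adjustment, 2661 features (17.7%) had a p under 0.05, of which 1663 (11.1% of those tested) were higher and 998 (6.65%) lower in HD bulls. Their median log2 fold change was 0.50 for those higher, which ranged up to 3.41, and -0.52 for those lower, which ranged down to -2.66. Differences above 1 on the log2 scale were few, with 87 features higher and 49 lower, and 75 and 34 of these had an unadjusted p under 0.05. The log2 fold changes had a median standard error of 0.20. With only the 16 HD and LD libraries in the edgeR fit, 2135 features had an unadjusted p under 0.05. The lowest adjusted p of that fit was 0.315.

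DESeq2, the tool of the study, gave calls. DESeq2's Wald test with the beta prior called 550 of 8098 features (6.79%) at an adjusted p under 0.1, with 469 (5.79%) higher and 81 (1%) lower in HD bulls. Each of these 550 also had an unadjusted p under 0.05 by edgeR. DESeq2 with its defaults called 524, and limma voom called 0 with 2686 features at an unadjusted p under 0.05.

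The excess of features higher in HD bulls depended on the scaling between libraries and on the tool. Of the features at an unadjusted p under 0.05 by edgeR, 62.5% were higher in HD bulls with TMM normalization and 66.9% with DESeq2's size factors. With upper quartile factors the share was 47.5%, and with library size alone 15.1%. In limma voom, which also used TMM normalization, it was 43.9%. Library size alone moved the median log2 fold change over all features from 0.01 to -0.17.

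**Figure D1:**
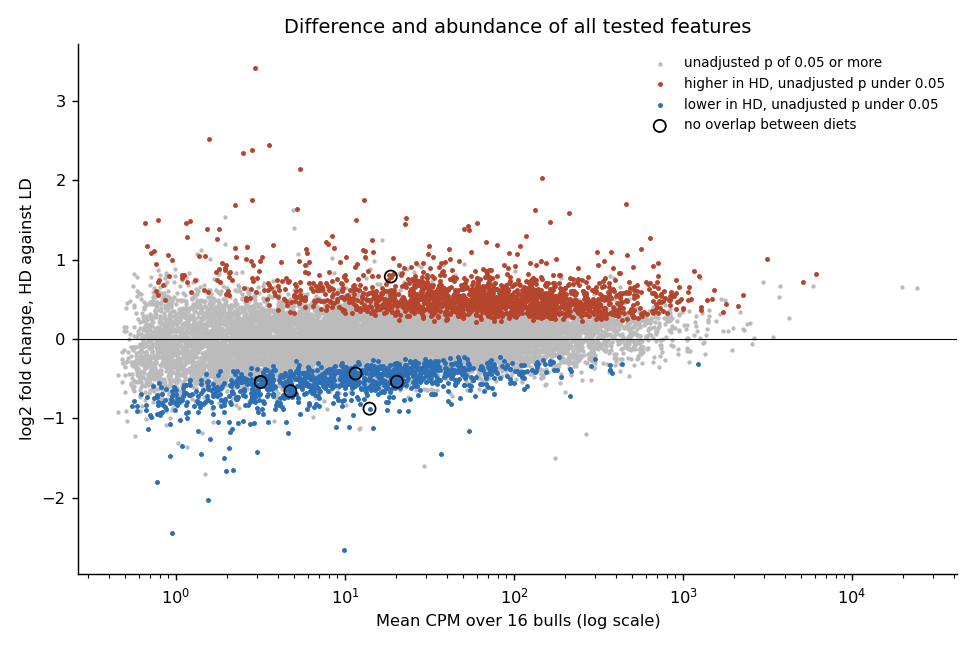
Each point is 1 of 15005 gene features, with its mean CPM over the 16 bulls on a log axis against its log2 fold change between HD and LD bulls. Features at an unadjusted p under 0.05 and higher in HD bulls (1663, red) lie further to the right than those lower in HD bulls (998, blue), and the 6 circled features had no overlap between the diets.

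Abundant transcripts lay further towards HD bulls than scarce ones did, under each scaling, whereas their direction against 0 depended on the scaling. With TMM normalization, when the tested features were divided into 5 quintiles by mean CPM, the highest quintile (above 80.6 CPM) had 744 of 3001 features (24.8%) higher in HD bulls at an unadjusted p under 0.05 and 56 (1.87%) lower, with a median log2 fold change of 0.16. The lowest quintile (up to 3.47 CPM) had 72 (2.40%) higher and 238 (7.93%) lower, with a median of -0.10. Over all features tested the median was 0.01. Features higher in HD bulls at this threshold had a median of 68.4 CPM and those lower a median of 10.5 CPM, against 18.5 CPM over all features tested. The 10 most abundant features, all above 3150 CPM, were each higher on average in HD bulls, by 0.03 to 1.00 on the log2 scale, and 3 of them had an unadjusted p under 0.05. Over all features tested 51.4% were higher and 17.7% had such a p, and in the highest quintile 2142 of 3001 were higher. With library size alone the highest quintile had a median of -0.02, with 213 features higher and 248 lower at that p, the lowest quintile a median of -0.29, and 9 of the 10 most abundant features were higher in HD bulls. With upper quartile factors the medians were 0.11 and -0.15, and 9 of those 10 were higher.

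The number of exon bins, which follows how many exons a gene has, also went with the direction of the difference, though not in a steady order. Among 2806 features with 3 to 5 bins, 532 (18.96%) were higher and 129 (4.60%) lower in HD bulls at an unadjusted p under 0.05. Among 1999 features with 21 to 49 bins, 48 (2.40%) were higher and 242 (12.1%) lower. Median log2 fold changes were 0.13 and -0.14, and with library size alone they were -0.06 and -0.32. With library size alone the class of 3 to 5 bins had 188 features (6.70%) higher and 323 (11.5%) lower at that p. The class of 21 to 49 bins then had 7 higher and 558 lower. Features with fewer bins lay below the class of 3 to 5, with 12.7% of 628 features with 1 bin and 12.3% of 759 with 2 bins higher in HD bulls and medians of 0.04 and 0.07. These shares were near that over all features tested, of which 11.1% were higher and 6.65% lower. In the highest quintile of abundance, 552 of 1399 features (39.5%) with 10 or fewer bins were higher in HD bulls, with a median log2 fold change of 0.29, against 192 of 1602 (11.99%) and a median of 0.06 for those with 11 or more bins.

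These are descriptions across genes, which are not independent replicates. The gap in median log2 fold change between the highest and lowest quintile was 0.27, and it was between 0.19 and 0.34 under 33 alternatives, the other scalings among them. The gap between features with 3 to 5 and with 21 to 49 bins was 0.27, and between 0.13 and 0.33 under the same alternatives. By bull, the diets overlapped. The median deviation of the highest quintile from the mean of the 16 bulls, less that of the lowest quintile, ran from -0.12 in HD bull 14 to 0.44 in HD bull 13 (median 0.09) and from -0.31 in LD bull 23 to 0.15 in LD bull 24 (median -0.13), on the log2 scale. For the bin classes, the same difference ran from -0.24 in HD bull 12 to 0.67 in HD bull 14 (median 0.12) and from -0.36 in LD bull 1 to 0.09 in LD bull 24 (median -0.14). A fit that adjusted for reads outside exons gave gaps of 0.19 between quintiles and 0.22 between bin classes. The part of these reads in the pattern was not tested further.

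**Figure D2:**
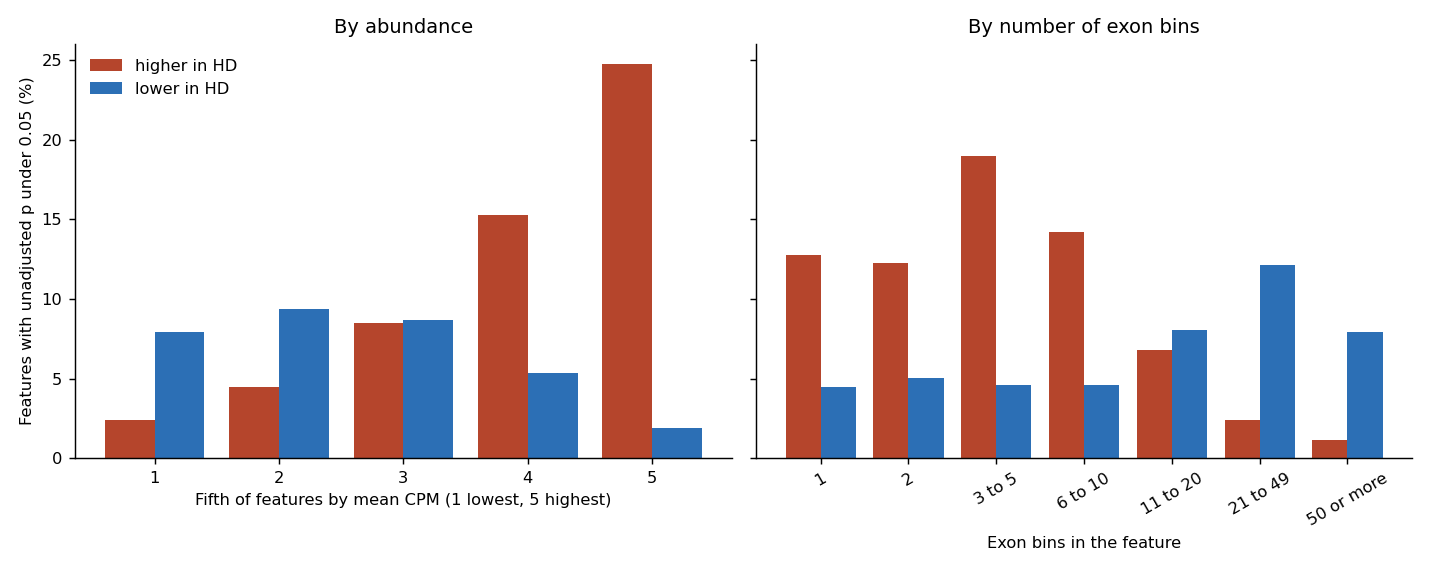
Bars give the percentage of features at an unadjusted p under 0.05 that were higher (red) or lower (blue) in HD than in LD bulls with TMM normalization, by quintile of mean CPM on the left and by the number of exon bins on the right. The share higher in HD bulls rose from 2.40% in the lowest to 24.8% in the highest quintile, and was 18.96% for features with 3 to 5 bins and 2.40% for those with 21 to 49.

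The 3 mitochondrial features whose genes could be named each had a higher mean in HD bulls, and 0 of them passed the adjusted threshold. In the highest quintile of abundance 2142 of 3001 features were higher in HD bulls, as were all of the 10 most abundant. Other genes of the mitochondrial genome were not analysed here. COX1, the catalytic subunit of complex IV, had a lowest, median and highest level of 11875, 21114 and 60606 CPM in HD bulls and 7120, 16161 and 45243 CPM in LD bulls. The diets overlapped across most of this range, with 4 of 8 HD bulls above the LD median and 2 above the highest LD bull. Means were 29712 ± 18770 CPM (SD, n = 8) and 19048 ± 11767 CPM, and the log2 fold change was 0.64 (95% interval -0.16 to 1.44, edgeR adjusted p = 0.369).

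COX3 and ATP6 overlap with 1 further gene in a feature of 5 bins, so their reads were joined. Levels were 11223, 20114 and 46002 CPM (lowest, median, highest) in HD bulls and 6318, 13914 and 34131 CPM in LD bulls. In HD bulls, 7 of 8 were above the LD median. The log2 fold change was 0.65 (95% interval -0.08 to 1.38, edgeR adjusted p = 0.325), and the mean was higher in HD bulls in each of the 5 bins, by 1.31 to 1.75 times.

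CYB had levels of 3081, 5772 and 16675 CPM (lowest, median, highest) in HD bulls and 2059, 4171 and 8676 CPM in LD bulls. HD bulls reached higher, with 3 above the highest LD bull, but 3 of 8 lay below the LD median. The log2 fold change was 0.82 (95% interval 0.05 to 1.60, edgeR unadjusted p = 0.038, adjusted p = 0.259).

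Within their diets, HD bull 8 and LD bull 2 had the highest values for each of these mitochondrial features and the lowest shares of reads outside exons, 9.54% and 10.3%. HD bull 12 had the lowest share of counts on the 3 features among HD bulls (2.66%) with 14.9% of reads outside exons, and LD bull 1 the lowest among LD bulls (1.68%) with 15.96%. In a fit that adjusted for that share, the log2 fold changes were 0.32 for COX1, 0.38 for the joined feature and 0.43 for CYB, with edgeR adjusted p of 0.353, 0.225 and 0.233. All 3 features stayed above 0 under each alternative in which they were fitted, library size alone included. Their adjusted p over these alternatives was between 0.140 and 0.702. Without HD bull 8 the log2 fold changes were 0.41 for COX1, 0.45 for the joined feature and 0.57 for CYB (edgeR adjusted p of 0.618, 0.544 and 0.467), and without LD bull 2 that of COX1 was 0.96 (edgeR adjusted p = 0.212).

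**Figure D3:**
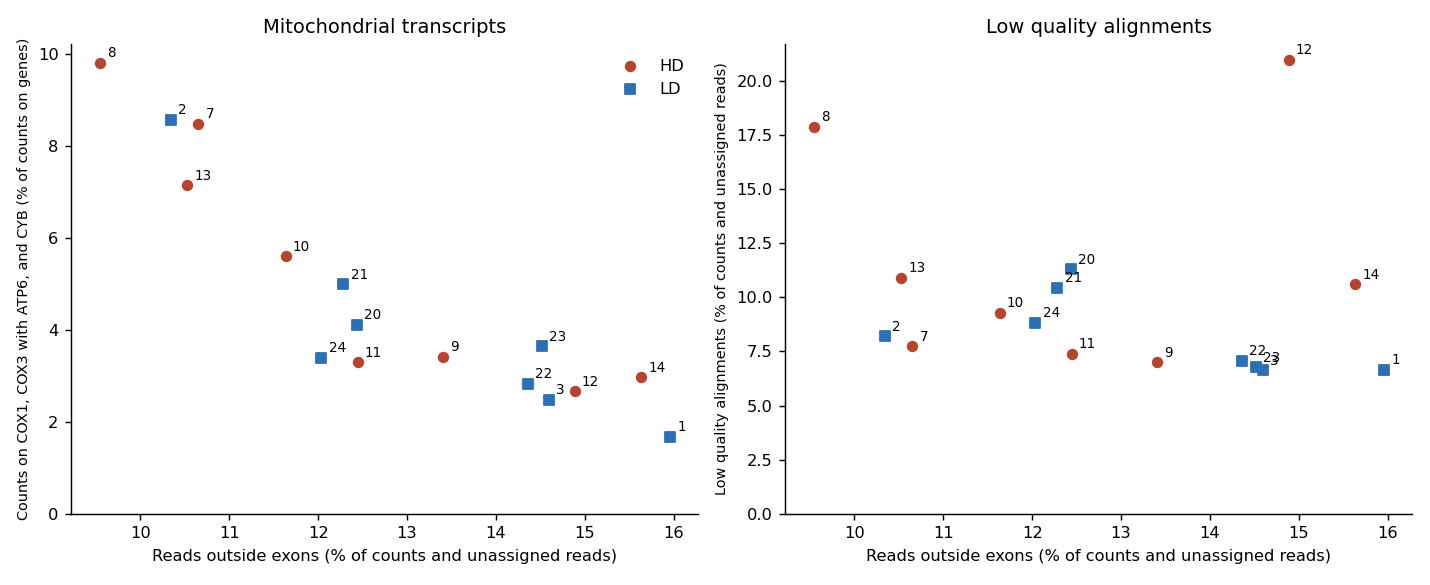
Each point is 1 bull (HD red circles, LD blue squares, bull number beside it), with reads outside exons on the x axis in percent of counts and unassigned reads. On the left, counts on the 3 mitochondrial features are in percent of counts on genes and are highest in HD bull 8 and LD bull 2; on the right, low quality alignments reach 17.9% in HD bull 8 and 20.99% in HD bull 12.

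Among the other features, the 2 with the smallest p in each direction are given by identifier. Their biological roles are not stated because the files do not pair them with names. ENSBTAG00000031834, a feature of 6 bins, had levels of 17.7, 23.1 and 29.3 CPM (lowest, median, highest) in HD bulls and 10.8, 12.9 and 17.5 CPM in LD bulls. Every HD bull was above every LD bull, and this was the single feature of 15005 (0.00666%) with that pattern. The log2 fold change was 0.79 ± 0.16 (SE, edgeR unadjusted p = 3.54e-05, adjusted p = 0.206), and the adjusted p of DESeq2 was 0.0066 with the beta prior. Each of the 6 bins was higher in HD bulls, by 1.27 to 2.25 times.

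ENSBTAG00000019386, also of 6 bins, spread widely among HD bulls, from 16.3 CPM in HD bull 7 to 73.1 CPM in HD bull 8 (median 26.4), and ran from 3.92 CPM in LD bull 3 to 18.04 CPM in LD bull 24 (median 13.7). In HD bulls, 6 of 8 were above the highest LD bull, and the lowest HD values fell among the highest LD values. The log2 fold change was 1.45 ± 0.33 (SE, edgeR unadjusted p = 0.000137, adjusted p = 0.206). Each of its 6 bins was higher in HD bulls on average, by 1.03 to 3.24 times.

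ENSBTAG00000025340, of 30 bins, was the feature with the smallest p among those lower in HD bulls. Its levels were 11.2, 20.6 and 29.2 CPM (lowest, median, highest) in HD bulls and 25.8, 46.1 and 91.1 CPM in LD bulls. In HD bulls, 5 of 8 were below the lowest LD bull and all 8 below the LD median. Its log2 fold change was -1.44 ± 0.31 (SE, edgeR unadjusted p = 6.89e-05, adjusted p = 0.206). All 19 bins with a mean of at least 5 counts were lower in HD bulls, at 0.264 to 0.479 times the LD mean.

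ENSBTAG00000033160, of 13 bins, had levels of 4.53, 11.01 and 12.9 CPM in HD bulls and 14.2, 17.2 and 23.3 CPM in LD bulls. Every HD bull was below every LD bull. Its log2 fold change was -0.88 ± 0.19 (SE, edgeR unadjusted p = 8.09e-05, adjusted p = 0.206), and each of its 13 bins was lower in HD bulls. This pattern held for 5 features in all (0.0333% of 15005), at mean levels of 3.17 to 20.3 CPM and with log2 fold changes between -0.88 and -0.43. With library size alone, 0 features had every HD bull above every LD bull and 13 had every HD bull below. All 4 features given by identifier had the same direction under each of 33 alternatives. They were picked by smallest p in these same bulls, which favours their sizes and p, so the unchanged direction is not separate support. Their adjusted p reached 0.548 over these alternatives, with the share of low quality alignments as a covariate, and by edgeR it was 0.0987 without HD bull 12. With DESeq2's defaults the adjusted p was 0.0070 for ENSBTAG00000031834 and 0.0102 for each of the other 3, and with its beta prior it was 0.0170 for ENSBTAG00000019386 and 0.0150 for ENSBTAG00000025340, with none given for ENSBTAG00000033160.

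**Figure D4:**
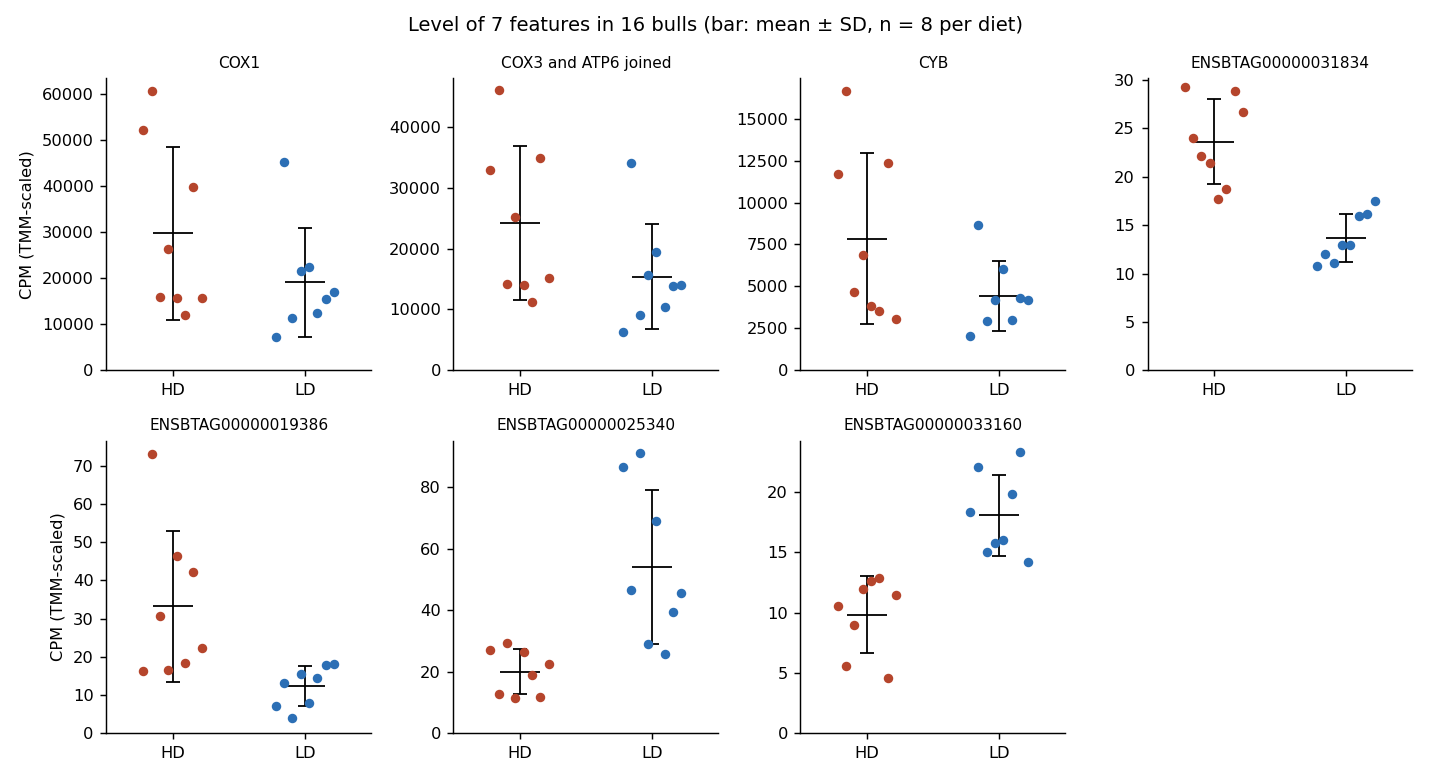
Points are the 16 bulls (HD red, LD blue) and bars the mean ± SD (n = 8 per diet) of TMM-scaled CPM, on axes that start at 0, for the mitochondrial features and the 4 features given by identifier. The diets overlap for COX1, the joined COX3 and ATP6 feature and CYB, and are apart for ENSBTAG00000031834 (17.7 CPM or more against 17.5 or less) and ENSBTAG00000033160 (12.9 or less against 14.2 or more).

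HD bulls differed more among themselves than LD bulls did. The SD between bulls of log2(CPM + 0.5) was in the median 0.46 in HD and 0.29 in LD bulls, with 0.31 in MD bulls. For 82.8% of the features the SD was larger in HD than in LD bulls, and the median ratio was 1.55. Without HD bull 14, which had the smallest library, the ratio was 1.32, and without HD bulls 8, 12 and 14 it was 1.13. Features are not independent, and this difference was not tested.

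Single bulls moved the outcome. HD bull 12 had the lowest HD value in 567 of the 1663 features higher in HD bulls and the highest HD value in 374 of the 998 lower ones, more than any other HD bull, whereas HD bull 13 did so in 6 and 9. Without HD bull 12, edgeR called 716 of 15075 features (4.75%), 460 higher and 256 lower in HD bulls, with the smallest adjusted p at 0.0987, and 413 of these were also called by DESeq2 with the beta prior. Without any other single bull, 0 features were called. Without HD bulls 8 and 12, those with the most low quality alignments, 0 were called and 2872 had an unadjusted p under 0.05, and without HD bulls 8, 12 and 14 these counts were 0 and 3232. With the share of low quality alignments as a covariate, 1329 features had an unadjusted p under 0.05 and 0 were called by edgeR.

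**Figure D5:**
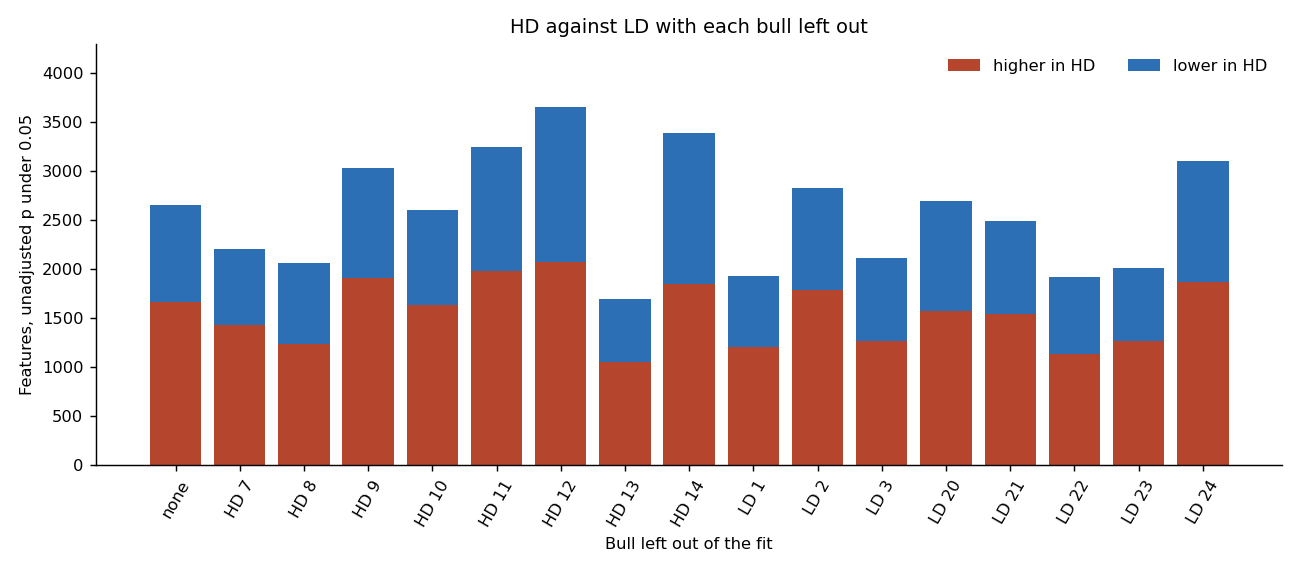
Bars give the number of features at an unadjusted p under 0.05 (edgeR), split into higher (red) and lower (blue) in HD bulls, with no bull left out and with each of the 16 bulls left out in turn. The count was 2661 with all bulls, highest at 3660 without HD bull 12 and lowest at 1696 without HD bull 13.

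The files hold counts by exon bin, so the share of a gene's reads on each bin could also be compared between the diets. By limma's diffSplice, which asks whether a bin moved apart from the other bins of its gene, 0 of 12285 features (0%) passed the same threshold, the lowest adjusted p being 0.276. Without adjustment, 134 features (1.09%) had a p under 0.05. Leaving out each bull in turn gave between 0 and 6 calls, with at least 1 without HD bulls 9, 10, 11, 12 or 14 or LD bulls 20 or 24.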

How the data were processed

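Testicular mRNA of 24 bulls was sequenced as 75 base single end reads from TruSeq Stranded libraries. The authors mapped the reads with TopHat 2.0.10 and Bowtie 1.1.2 to UMD3.1, per the methods and processing notes. The authors deposited raw counts of reads for each exon bin, without normalization. The counter of the bins is not given in the sources used here.

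Gene counts were summed over the 210707 bins of 24525 features, and 87 features join overlapping genes. As the counter is not given, a read over several bins may count in each, and bins of a gene may then share reads. Rows of unassigned reads were left out of totals. The main test was that of edgeR 4.0.16 under R 4.3.3 (TMM, filterByExpr, glmQLFit, glmQLFTest, 24 libraries in 1 fit, Benjamini-Hochberg over all features). The standard error was the log2 fold change divided by the square root of F, and CPM were taken on TMM-adjusted library sizes. The use of exons was compared by limma 3.58.1 (voom, diffSplice, bins with a mean of at least 5 counts, Simes p). DESeq2, the tool of the study, was an alternative here, in version 1.42.0. Single values were compared by two-sided exact permutation. The fits were run on simulated counts with the same spread in each diet, so they were not tested under the unequal spread seen here. No pair of the 56 within HD or LD looked like 1 library deposited again (lowest chi-square per degree of freedom 16.2). Each bull was 1 replicate. Depth was 9163675 counts or more per bull of these diets, and scarce features were measured less precisely.

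The diets compared, the lists and the tests were chosen with earlier results of these data known. The rule was to name, by list and by smallest p, features with a symbol, the genes the study names, and features without overlap. As identifiers could not be matched to symbols, the mitochondrial genes and the 2 features of smallest p in each direction are named, and the planned gene lists and cell type markers were not analysed here. The classes by abundance and exon bins and the spread between bulls were added after seeing the data. Alternatives were other scalings, filters and tools, the 16 libraries alone, 1 bin per gene, features left out, covariates, and each bull left out. Authors' own fold changes and p-values were not used.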

Additional observations from a re-analysis of the deposited data

Results flagged for a closer look

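Of 32 sets of values, each over the 8 bulls of 1 diet, 3 had 1 extreme bull set apart from its neighbour by a large share of the range, where chance gives about 1 in 20 groups, or 1.6 of them. The library of LD bull 3 held 19470903 counts on genes and the next largest of that diet 15065648, a gap of 0.674 of the range. In LD bull 2 the 10 most abundant features took 12.6% of counts, and the next share in that diet was 7.77%, a gap of 0.566 of the range. The same bull had 45243 CPM on COX1, against 22458 CPM in the next, a gap of 0.598 of the range, and COX1 is among those 10 features. Without LD bull 2 the log2 fold change of COX1 was 0.96 and its edgeR adjusted p was 0.212, and without HD bull 8 these were 0.41 and 0.618.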

How the results depend on the processing

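The alternatives were chosen with earlier results known, apart from the covariate on low quality alignments and the fits without several HD bulls, which were chosen after seeing these data. The cause of each change was not tested.

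The count of features called between HD and LD bulls was 0 by edgeR and 0 in 30 of 33 alternatives, most of which were edgeR again. The calls of DESeq2 numbered 550 (beta prior) and 524 (defaults), and fits that each lacked 1 bull made from 0 to 716. The count at an unadjusted p under 0.05 was 2661, from 1696 to 3660 with each bull left out and 1329 with low quality alignments as a covariate. With the 16 HD and LD libraries alone that count was 2135. Features without overlap numbered 6, from 6 to 20 with each bull left out, 13 with library size only, 22 without HD bulls 8 and 12, and 127 without HD bulls 8, 12 and 14, where fewer bulls have to lie apart. Exon usage calls numbered 0, from 0 to 6 with each bull left out. The difference in mean counts on genes was -201291 and from -1250916 to 568861 with each bull left out. Counting 1 bin per gene, that with most reads, turned it to 216931. The other 4 library measures kept their direction in all 17 alternatives. DESeq2's filter left no adjusted p for ENSBTAG00000033160 with the beta prior, and with the defaults it was 0.0102. Gene lists were not run, as identifiers had no symbols. At 8 bulls per diet, the median standard error of 0.20 on the log2 scale limits what these data can show, and it was 0.30 in the lowest quintile of abundance.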

Other observations

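The MD bulls give another level for the features above, in the same fit, with no test between them here. ENSBTAG00000031834 was at 16.1 ± 4.24 CPM (SD, n = 8) in MD bulls, against 23.6 ± 4.39 in HD and 13.7 ± 2.52 in LD bulls. ENSBTAG00000019386 was at 26.3 ± 9.99 CPM in MD bulls, against 33.2 ± 19.9 in HD and 12.2 ± 5.25 in LD bulls. ENSBTAG00000025340 was at 51.6 ± 25.4 CPM in MD bulls, against 19.9 ± 7.33 in HD and 54.1 ± 25.2 in LD bulls. ENSBTAG00000033160 was at 17.6 ± 3.26 CPM in MD bulls, against 9.82 ± 3.21 in HD and 18.1 ± 3.39 in LD bulls. The mean of MD bulls thus lay nearer to that of LD bulls for 3 of these features and nearer to that of HD bulls for ENSBTAG00000019386.

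No feature was present in every bull of one diet and absent from every bull of the other. Of the 20902 features with a count in any of the 16 bulls, 15369 had a count in each of them, and 0 had a count in all 8 bulls of a diet and none in the other.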
